A study of Mus musculus with 4 samples.

Results

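Wide stretches of chromatin that were open to a like degree in classical dendritic cells of type 1 (cDC1) and in plasmacytoid dendritic cells (pDC) are described here. The peak intervals of both cell types were merged into 93615 regions, and 39152 autosomal regions overlapped an interval and a footprint of each cell type. In each of these shared regions the largest tag count of a footprint in cDC1 was divided by the largest in pDC, and the ratio was divided by its median over the shared regions, 3.23. Regions with a scaled ratio between 0.8 and its inverse, called the band here, and a merged width of at least 1000 bp were taken, which left 3989 regions, 10.2% of the shared regions and 59.6% of the 6689 shared regions of that width. The members were thus selected on measured tag counts and on width, so their ratio and their width are given only as a description.

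The cells came from mouse bone marrow grown in culture, expanded with cytokines and then differentiated with Flt3 ligand. The cDC1 were sorted as CD11c+ CD11b+ XCR1+ cells and the pDC as CD11c+ CD11b- B220+ cells, and the labels call the former classical dendritic cells. Omni-ATAC-seq was done on 2 replicate samples of each type with 50000 cells per library. No strain, allele or age is given in the sources used here, and the sources do not tell if replicates were separate cultures or animals. Since the replicates had been merged before deposit, each cell type had 1 list of peaks and 1 of footprints, and no value below has a replicate error or a p-value. The intervals given with shares, rates and medians are 95% intervals that cover counting error only.

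In ATAC-seq the transposase Tn5 cuts DNA where it is not wrapped in nucleosomes, so stretches with many cuts mark promoters, enhancers and other regulatory DNA. A bound protein shields its site from the enzyme and leaves a footprint, a short dip between cut flanks. An open region wider than the space of a single removed nucleosome can hold several such openings side by side. cDC1, which cross-present antigen to T cells, and pDC, known for their large output of type I interferon, arise from a common progenitor, and much open chromatin is known to be shared between related cell types.

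The word equal holds only on the scale used. The tag count listed with a footprint was read as a number of cuts in a window that is not stated, and in raw tags the members were far higher in cDC1. Their largest tag count ran from 105 to 2777 in cDC1, with a median of 1132 (interval of the median 1113 to 1153), and from 34 to 898 in pDC, with a median of 338 (331 to 344). The cDC1 library had 224.6 M reads, 1.75 times as many as the 128.6 M of pDC, and 34.0% of its reads lay in peaks against 16% in pDC, which made the reads in peaks 3.72 times as many. With the ratio of reads in peaks as the scale, 3976 wide regions fell in the band and 3281 of the members (82.3%) were among them. With the ratio of all reads, 329 wide regions fell in the band and 0 of the members. The study takes the share of reads in peaks as a mark of library quality. Beyond depth, library quality and a true difference in openness over the whole genome cannot be told apart in these lists.

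The share of shared regions inside the band, 36.8% over all 39152, went up with width. It was 24.8% (interval 23.6 to 26.0%) below 400 bp, 29.7% from there to below 600 bp, 33.4% to below 800 bp and 44.7% to below 1000 bp. Wide regions up to 1500 bp were divided at the middle of that range, and the share was 55.8% (54.1 to 57.4%) in the narrower of these classes and 62.6% in the wider. It was 66.7% (63.9 to 69.4%) from 1500 to below 2000 bp. The 171 regions of 2000 bp or more had 64.3% (56.9 to 71.1%), within the interval of the class before. The quartiles of the scaled ratio were 0.492 and 0.863 in the narrowest class, lay further apart in the next, at 0.653 and 1.48, and were 0.898 and 1.22 in the widest. The narrowest regions also leaned to lower ratios, with a median of 0.651 below 400 bp. The median was 0.979 in the next class, highest at 1.11 from 600 to below 800 bp, and 1.02 in the widest class.

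**Figure D1:**
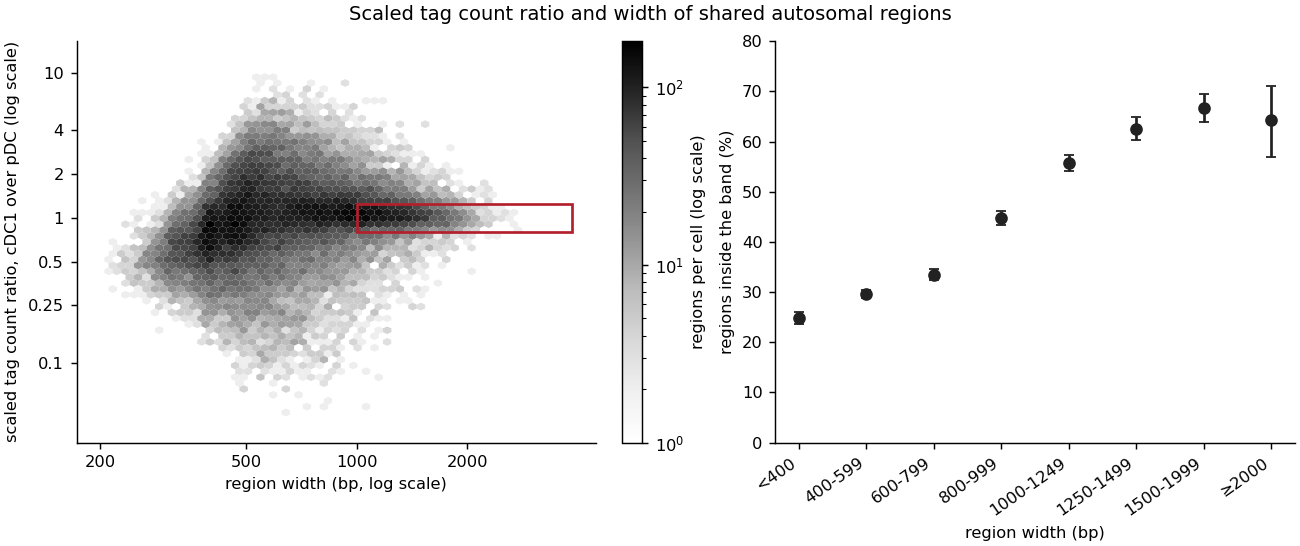
Left, scaled ratio of the largest tag counts, cDC1 over pDC (y axis, log scale), against region width in bp (x axis, log scale) for 39152 shared autosomal regions, with darker cells holding more regions and the red box marking the 3989 members. Right, share of regions inside the band (y axis, percent) by width class (x axis), with 95% Wilson intervals; it goes from 24.8% below 400 bp to 66.7% at 1500 to below 2000 bp.

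Wide regions also had more tags, and the share in the band followed the tag level as well. Level here is the geometric mean of the largest tag counts of both cell types after the cDC1 count was divided by 3.23, so it stands on the scale of pDC tags. Among wide regions the share in the band was 31.0% (27.4 to 34.8%) at a level below 100, 34.4% at 100 to 199, 61.2% at 200 to 399 and 88.9% (87.3 to 90.3%) at 400 or more. Among regions under 1000 bp it was 25.9%, 28.7%, 46.6% and 81.3% (78.8 to 83.5%) in the same classes. Within each class of level the wide regions were thus in the band more often than the narrower ones, by 5.02 to 14.6 percentage points, and the rise with level was larger than the gap between the widths. Of the 3989 members, 1506 had a level of 400 or more and 183 a level below 100.

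The members were 1000 to 2849 bp wide, with a median of 1246 bp and quartiles of 1107 and 1452 bp. In 88.3% (87.3 to 89.3%) of them each cell type had 1 interval, and in the others a region was joined from several intervals. The intervals covered a median of 1209 bp in cDC1 and of 1074 bp in pDC. They covered more bases in cDC1 in 3212 members (80.5%) and more in pDC in 768 (19.3%). At least 1000 bp were open in each cell type on its own in 2386 members (59.8%, 58.3 to 61.3%), so for the others the width limit was met only through the wider cell type or the joint span.

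A median of 84.9% (84.4 to 85.4%) of the span of a member lay in an interval of both cell types. That share was 79.6% in the 10419 regions under 1000 bp inside the band, which had lower tag levels, and within each of the 4 classes of level it was higher in the narrower regions. In all wide shared regions, members included, it was 81.8% (81.3 to 82.2%). It was 56.4% (51.0 to 60.3%) in the 376 wide regions at least 2-fold higher in cDC1. In the 319 at least 2-fold higher in pDC it was 60.6% (57.8 to 62.6%). Under 50% of the span was open in both in 177 members (4.44%), against 10.5% of all wide shared regions. In the wide regions of unequal tag counts the shares were 43.6% and 30.4%.

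The strongest points of the members lay close together as well. MACS2, the peak caller, lists a summit for each local maximum, and the summit with the largest −log10 q, a measure of how far the reads exceed background, was taken in each cell type. The distance between the cDC1 and the pDC summit had a median of 23 bp (22 to 24 bp) and quartiles of 10 and 50 bp, and 53.6% of the members had the summits within 25 bp. In 345 members (8.65%, 7.82 to 9.56%) they were 200 bp or more apart, up to 1808 bp. In all wide shared regions, members included, the median was 29 bp and the share 14.6% (13.8 to 15.4%). The median was 59 bp and the share 29.8% (25.4 to 34.6%) in the wide regions higher in cDC1. In those higher in pDC they were 124 bp and 41.4% (36.1 to 46.9%). In regions under 1000 bp inside the band the median was 25 bp, but only 2.35% had the summits 200 bp or more apart, a distance for which a narrow region has less room.

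Both measures moved with the tag level. At a level below 100 the 183 members had a median summit distance of 111 bp, 37.7% (31.0 to 44.9%) of them had the summits 200 bp or more apart and a median of 52.7% of the span was open in both. At a level of 400 or more the values were 17 bp, 2.79% (2.07 to 3.75%) and 88.0%. Within like levels the narrower regions inside the band had closer summits and more of their span open in both. From the lowest to the highest class their median distance was 37, 24, 19 and 13 bp, against 111, 34, 25 and 17 bp in the members. The median span open in both was 68.3%, 81.1%, 86.9% and 89.5% in the narrower regions, against 52.7%, 79.3%, 84.9% and 88.0% in the members. The wide regions of unequal tag counts had lower levels, so they were also set beside members of like level. At 100 to 199, the summits were 200 bp or more apart in 17.6% (14.5 to 21.1%) of 506 members, in 30.2% (24.4 to 36.7%) of 212 regions higher in cDC1 and in 42.3% (34.6 to 50.3%) of 149 regions higher in pDC. At 200 to 399 the shares were 8.08% (6.91 to 9.44%), 16.7% (10.5 to 25.4%) and 30.8% (20.9 to 42.8%). Below 100 they were 37.7%, 48.5% (36.8 to 60.3%) and 47.1% (37.7 to 56.7%), with intervals that overlap. The median span open in both was 79.3%, 52.5% and 58.3% at 100 to 199 and 84.9%, 69.5% and 71.2% at 200 to 399, but below 100 it was 52.7% in the members, 34.2% in the regions higher in cDC1 and 55.4% in those higher in pDC. The part of the lower count of the weaker cell type in these gaps was not tested.

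**Figure D2:**
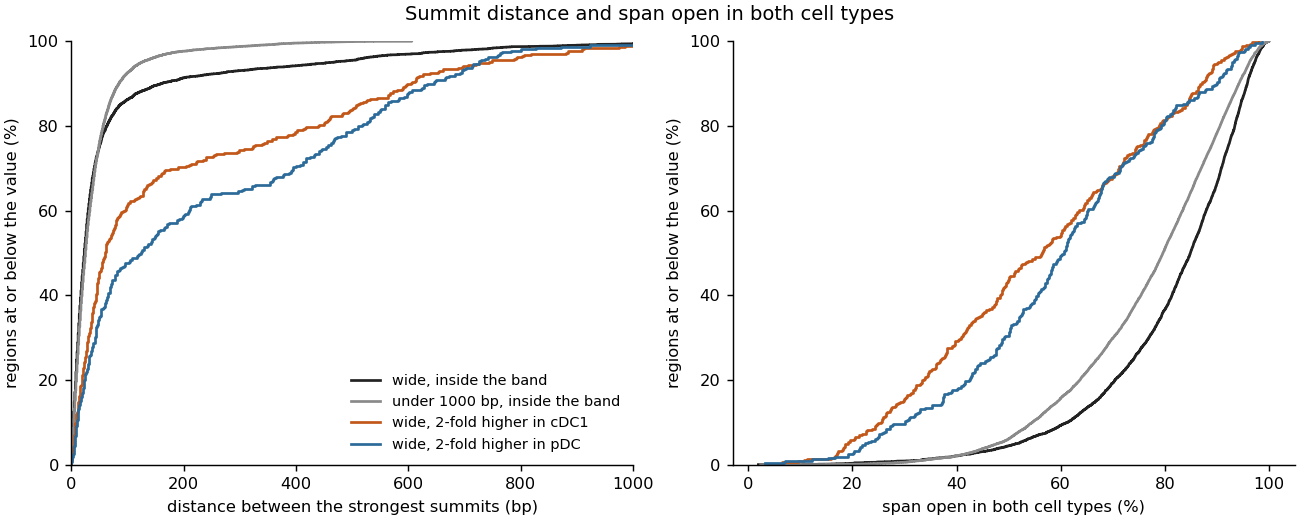
Cumulative share of regions (y axis, percent) by the distance between the strongest cDC1 and pDC summits (left, x axis in bp, cut at 1000 bp) and by the share of the span open in both cell types (right, x axis in percent). Black marks the 3989 members, grey the narrower regions inside the band, orange and blue the wide regions that were 2-fold or more higher in cDC1 or in pDC; the medians of the members are 23 bp and 84.9%.

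Most members had more than 1 local maximum. Of the members, 2766 (69.3%) had 2 or more summits in cDC1 and 2574 (64.5%) in pDC, against 7.45% and 7.50% of the narrower regions inside the band. Of all wide shared regions 72.1% and 65.4% had them, and of those higher in cDC1 85.9% in cDC1, so several summits were no more frequent in the members than in wide regions in general. Neighbouring summits of a member lay a median of 507 bp apart in cDC1 and 467 bp in pDC. The 794 members with 1 summit in both cell types had a median distance between the cell types of 21 bp, and 6 of them (0.756%) had the summits 200 bp or more apart. Among the 2145 members with 2 or more summits in both, the median was 25 bp, but 279 (13.0%) had them that far apart. Large distances were thus found mostly in members with 2 or more summits in both cell types. These members were also wider, with a median of 1385 bp against 1091.5 bp where both had 1 summit. Width, level and number of summits were not separated here.

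The strongest summit often lay off the centre. It was in the middle 20% of the region in 29.3% (27.9 to 30.7%) of the members in cDC1 and in 30.1% (28.7 to 31.5%) in pDC. In the narrower regions inside the band it was there in 72.6% and 60.3%. In the wide regions higher in cDC1 the shares were 16% (12.6 to 20%) in cDC1 and 19.9% (16.2 to 24.3%) in pDC, and in those higher in pDC 21.6% (17.5 to 26.5%) and 19.7% (15.8 to 24.5%). In all wide shared regions, members included, they were 26.8% (25.7 to 27.9%) in cDC1 and 27.7% (26.6 to 28.7%) in pDC, close to the members. The strongest summit of a member was thus central less often than in narrower regions and more often than in wide regions of unequal tag counts. These groups were not matched for level or number of summits. The median level was 344.8 in members, 151.7 in the wide regions higher in cDC1 and 127.6 in those higher in pDC. In these groups 19.9%, 7.98% and 11.6% had 1 summit in both cell types.

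MACS2 gives the fold enrichment of a summit as reads over a background level. In most members it was higher in cDC1, and it came closer to even after scaling. It comes from the same reads as the tag counts, so it is no separate evidence of equality. The largest fold enrichment of a member had a median of 9.84 in cDC1 (2.26 to 19.1) and of 7.26 in pDC (1.85 to 15). The ratio of cDC1 to pDC had a median of 1.35 (1.34 to 1.36), below the 1.45 of all shared regions. Divided by the latter, it lay inside the band in 3155 members (79.1%, 77.8 to 80.3%), while 46.6% of all shared regions did so. At least 2-fold higher in cDC1 were 0 members, against 5.72% of the shared regions, and at least 2-fold higher in pDC were 0 members, against 6.28%. The rule had chosen the members for near equal tag counts from the same reads, so these counts of 0 are a description only.

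The members held 52919 footprints of cDC1, 10.1 per kb (9.97 to 10.1), and 45313 of pDC, 8.61 per kb (8.53 to 8.69). A member had a median of 13 footprints in cDC1 (1 to 39) and of 11 in pDC (1 to 35). In 2465 members (61.8%) cDC1 had more footprints, in 1201 (30.1%) pDC had more, and 323 (8.10%) were even. Footprints were less dense than in the narrower regions inside the band, which had 11.6 and 9.96 per kb, and in the members themselves they thinned out with width. In the width classes used above, the narrowest members had 10.4 per kb in cDC1 and 8.95 in pDC, and the 110 of 2000 bp or more had 8.86 and 7.62. Footprints had a median width of 15 bp in cDC1 and of 17 bp in pDC.

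Pooled over all members, the footprints formed a plateau along the region. This describes the pooled curve and not the shape of single members. The span of each member was cut into 10 equal parts. From the third to the eighth part the density stayed between 12.2 and 12.9 per kb in cDC1 and between 10.8 and 11.3 in pDC. It was 3.66 and 2.71 in the first part, and 2.85 and 2.58 in the last. The median tag count of a footprint in cDC1 was 225 in the first part, 904 in the sixth and 216 in the last, and in pDC 86, 285 and 82. The narrower regions had a peak in place of a plateau, with 20.6 per kb in the fifth part in cDC1 and 17.9 in pDC.

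**Figure D3:**
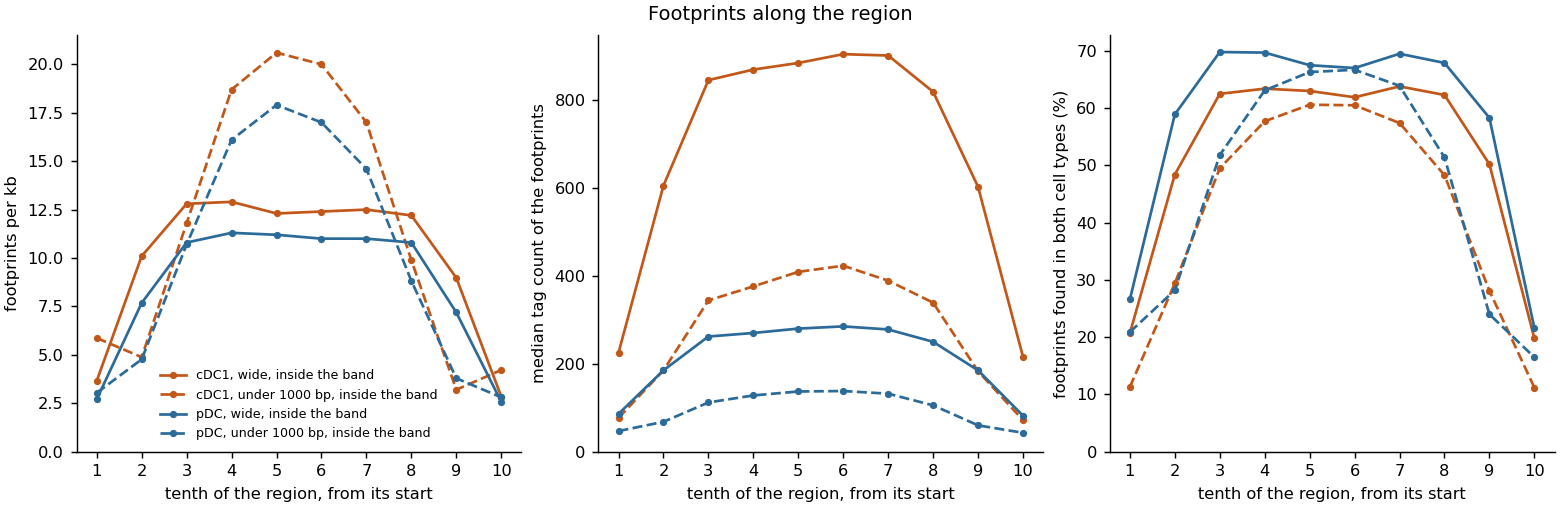
Footprints per kb, median tag count of a footprint and share of footprints found in both cell types (y axes) in each of 10 equal parts of the region from its start (x axes), for the members (solid) and the narrower regions inside the band (dashed), in cDC1 (orange) and pDC (blue). Pooled over regions, the members show a plateau of 12.2 to 12.9 footprints per kb in cDC1 and 10.8 to 11.3 in pDC. The narrower regions show a maximum of 20.6 and 17.9 per kb.

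A footprint was called found in both cell types when footprints of the other type covered at least 50% of its bases. In the members this held for 30431 footprints of cDC1 (57.5%, 57.1 to 57.9%) and 29055 of pDC (64.1%, 63.7 to 64.6%). Over all shared regions the shares were 48.3% and 53.0%, and in the narrower regions inside the band 51.0% and 56.4%. They were 32.9% and 47.2% in the wide regions higher in cDC1, and 37.2% and 30.9% in those higher in pDC. The members thus had the highest shares of these groups in both cell types.

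The sharing of footprints followed tags and position. Footprints of the members found in both had a median of 943 tags in cDC1 and 287 in pDC, and those found in one had 539 and 153. In the first of the 10 parts of a member 20.7% of cDC1 and 26.6% of pDC footprints were found in both, against 63.0% and 67.5% in the fifth. At a level of 400 or more the shares were 64.2% and 72.4% in the members and 65.1% and 70.3% in the narrower regions inside the band. At a level below 100 they were 30% and 38.1% in the members and 40% and 47.4% in the narrower regions. Of the 4 classes of level, the share of the members was above that of the narrower regions in 0 in cDC1 and in 1 in pDC, the class of 400 or more. Against the narrower regions the higher sharing of the members was thus not seen within like levels, apart from that class. Against the wide regions of unequal tag counts it was seen at levels of 100 to 199 and 200 to 399. Below 100 the cDC1 shares were 30% in members, 20.7% in regions higher in cDC1 and 27.9% in those higher in pDC. The pDC shares there were 38.1%, 37.7% and 24.6%, nearly even between members and regions higher in cDC1. At a level of 200 to 399 the cDC1 share was 56.9% in the members, 43.7% in the regions higher in cDC1 and 47.7% in those higher in pDC, and the pDC share was 62.7%, 54.7% and 38.2%. At 100 to 199 the cDC1 shares were 46.1%, 31.1% and 38.2% and the pDC shares 48.5%, 45.2% and 31.7%. Classes of level do not match the weaker cell type. At 100 to 199 the median largest tag count in pDC was 159.5 in members and 84.5 in regions higher in cDC1. In cDC1 it was 522 in members and 244 in regions higher in pDC. The part of these lower counts in the sharing was not tested.

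The rule looked only at the largest tag count in each cell type, so the other footprints of a member were described as well. Footprints of the cell types that overlapped by 50% or more of both were paired, 1 to 1, and the same scale of 3.23 was used. The tag counts of neighbouring footprints are not independent, and they come from the reads that chose the members. Pairs were found in 3856 members (96.7%) and numbered 20199. Of these, 17410 (86.2%, 85.7 to 86.7%) lay inside the band, against 47.6% of the 89622 pairs in all shared regions and 67.2% in all wide ones. At least 2-fold higher in cDC1 were 53 pairs (0.262%, 0.201 to 0.343%), against 6.79% of all, and at least 2-fold higher in pDC were 73 (0.361%, 0.288 to 0.454%), against 9.32%. In 1118 members (28.0%) the strongest footprints of both cell types were themselves a pair, which the rule placed in the band. Pairs with a largest footprint of either cell type were therefore left out, a choice made after the data were seen. Of the 17000 pairs that remained in members, 14403 (84.7%, 84.2 to 85.3%) lay inside the band. The share was 50.1% of the 64920 in all shared regions and 67.6% of the 23974 in all wide ones. These groups were not matched for level, which had a median of 344.8 in members, 117.9 in all shared and 279.4 in wide shared regions. At least 2-fold higher in cDC1 were 50 (0.294%), against 5.97% in all shared regions, and 67 were at least 2-fold higher in pDC (0.394%), against 8.47%. In the narrower regions inside the band, chosen by the same ratio, 80.6% of such pairs lay inside it.

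The spread of the pairs within a member was not smaller than in all shared regions or in the narrower regions inside the band. Its median was smaller than in the wide regions of unequal tag counts. In 143 such regions higher in cDC1 with 3 or more pairs, the highest ratio was a median of 1.35 times the lowest. In 102 such regions higher in pDC it was 1.34 times the lowest. The groups were not matched for level or number of pairs. In the 3195 members with 3 or more pairs, the highest ratio was a median of 1.24 times the lowest, with quartiles of 1.12 and 1.41, against a median of 1.19 over all shared regions and 1.16 in the narrower regions inside the band. All pairs lay inside the band in 1822 of them (57.0%, 55.3 to 58.7%), in 59.3% of the narrower regions and in 30.1% of all shared regions with as many pairs. Any pair at least 2-fold higher in cDC1 was found in 34 (1.06%), and any at least 2-fold higher in pDC in 51 (1.6%), against 8.71% and 11.4% of all shared regions. There was 1 member that had pairs that passed the 2-fold limit in both directions.

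**Figure D4:**
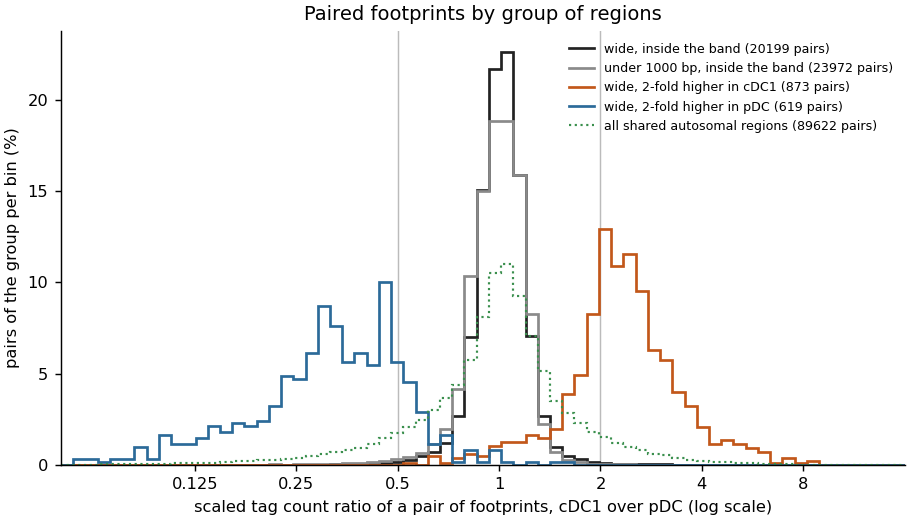
Share of the pairs of footprints of each group (y axis, percent per bin) by the scaled tag count ratio of the pair, cDC1 over pDC (x axis, log scale), with grey lines at 2-fold. The pairs of the members (black) and of the narrower regions inside the band (grey) crowd around 1, with 86.2% of the former inside the band, while all shared regions (dotted) spread further and the wide regions of unequal tag counts lie to either side.

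The member with pairs in both directions, on chromosome 17 from 13183987 to 13185973 (mm9), was singled out after its values were seen. Near its left end, 323 bp from the start, a pair had 151 tags in cDC1 and 117 in pDC, a scaled ratio of 0.40. In the middle, at 1179.5 bp, a pair had 1017 and 312 tags, a ratio of 1.01. At 1398 bp a pair had 1051 and 158 tags, a ratio of 2.06. Its strongest summits were 234 bp apart, and its largest tag counts, 1144 in cDC1 and 326 in pDC, gave the ratio of 1.09 that placed it in the band. The lowest ratio of any pair among members with 3 or more pairs, 0.18, was found on chromosome 9 from 57268428 to 57269473, where a pair had 208 tags in cDC1 and 363 in pDC, while the other 6 pairs had ratios of 0.67 to 0.90. The highest, 4.06, lay in the member that starts at 79066637 on chromosome 11, where a pair had 669 and 51 tags and the other 6 pairs had ratios of 1.11 to 1.22.

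To ask whether a whole stretch of a member could differ where its strongest stretch did not, footprints of both cell types were grouped into blocks, parted by at least 150 bp without a footprint of either type. A member had 1 block in 23.5% of cases, 2 in 45.7%, 3 in 23.5% and 4 or more in 7.32%. The narrower regions inside the band had 1 block in 75%. The blocks of the members spanned a median of 225 bp. Of the 8614 blocks, 18.3% (17.5 to 19.1%) had footprints of cDC1 only and 13.1% (12.4 to 13.9%) of pDC only. The shares were 12.6% and 7.99% in all shared regions and 19.4% and 13.5% in all wide ones, so such blocks were about as frequent as in wide regions in general.

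The ratio of the strongest block was largely set by the rule, so the next strongest block is described. Only blocks with footprints of both cell types were ranked, so blocks with 1 cell type only are not in the shares that follow. A second block of this kind was found in 1658 members. In 172 of these (10.4%) it contained a largest tag count that the rule had used. It had a median scaled ratio of 1.01 and quartiles of 0.805 and 1.24. It lay inside the band in 852 of them (51.4%, 49.0 to 53.8%), was at least 2-fold higher in cDC1 in 67 (4.04%, 3.19 to 5.10%) and at least 2-fold higher in pDC in 75 (4.52%, 3.62 to 5.63%). These blocks were weak, with a median level of 138.2 against 344.8 for the members themselves. Next strongest blocks of all wide shared regions were in the band in 43.6% (41.8 to 45.5%), those of wide regions higher in cDC1 in 20.5% (14.1 to 28.9%) and those of wide regions higher in pDC in 11.3% (6.73 to 18.4%). Where the wide regions were higher in pDC, the next strongest block was at least 2-fold higher in pDC in 66.1% and in cDC1 in 0 of 115.

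The 5 members with the most footprints held 60 to 70 of both cell types together. The first, on chromosome 6 from 124364116 to 124365642, was 1527 bp wide and had 36 footprints in cDC1 and 34 in pDC. Its largest tag counts of 736 and 259, a scaled ratio of 0.88, were modest for a member, and its strongest summits were 4 bp apart. All of its footprints formed 1 block, and the ratios of its 14 pairs ran from 0.490 to 0.880. The next, on chromosome 4 from 94717991 to 94720228, had 28 and 35 footprints in 3 blocks with ratios of 1.33, 1.19 and 0.97. That on chromosome 8 from 83262209 to 83264000 had a left block with 327 and 175 tags, a ratio of 0.58, beside a main block with 1000 and 328 tags, a ratio of 0.94. Those on chromosome 7 from 26033937 to 26036055 and chromosome 17 from 6986492 to 6987993 had ratios of 1.2457 and 1.1544.

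The 5 members with the largest tag counts, by the geometric mean of both cell types, were 1013 to 1341 bp wide. The first, on chromosome 1 from 90173357 to 90174492, had 2777 tags in cDC1 and 898 in pDC, a scaled ratio of 0.96, with 98.5% of its span open in both and only 8 and 10 footprints. The others were chr11:121097850-121099190, chr2:30837137-30838160, chr11:87405039-87406111 and chr8:74684493-74685505. Their largest tag counts were 2289 to 2497 in cDC1 and 765 to 842 in pDC, with ratios of 0.87 to 1.01, and they held 4 to 13 footprints in each cell type.

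The 5 widest members spanned 2739 to 2849 bp and consisted of 4 or 5 blocks. The widest, on chromosome 3 from 95032041 to 95034889, had 25 footprints in cDC1 and 26 in pDC. Its outer blocks had 1120 and 306 tags, a ratio of 1.13, and 1047 and 279 tags, a ratio of 1.16, with a weaker block of 513 and 145 tags, a ratio of 1.10, between them. The member on chromosome 18 from 39648683 to 39651519 had its strongest summits 1584 bp apart, although its 3 blocks with footprints of both types had ratios of 0.83, 0.88 and 0.92. The members on chromosome 5 from 125658037 to 125660859 and chromosome 7 from 71082089 to 71084827 had strongest blocks with ratios of 1.19 and 1.00, but their weakest blocks with both types were at 0.66 and 0.44. On chromosome 10 from 80039159 to 80041975, blocks with ratios of 0.84, 1.59 and 0.61 lay side by side, beside 1 with cDC1 footprints only.

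**Figure D5:**
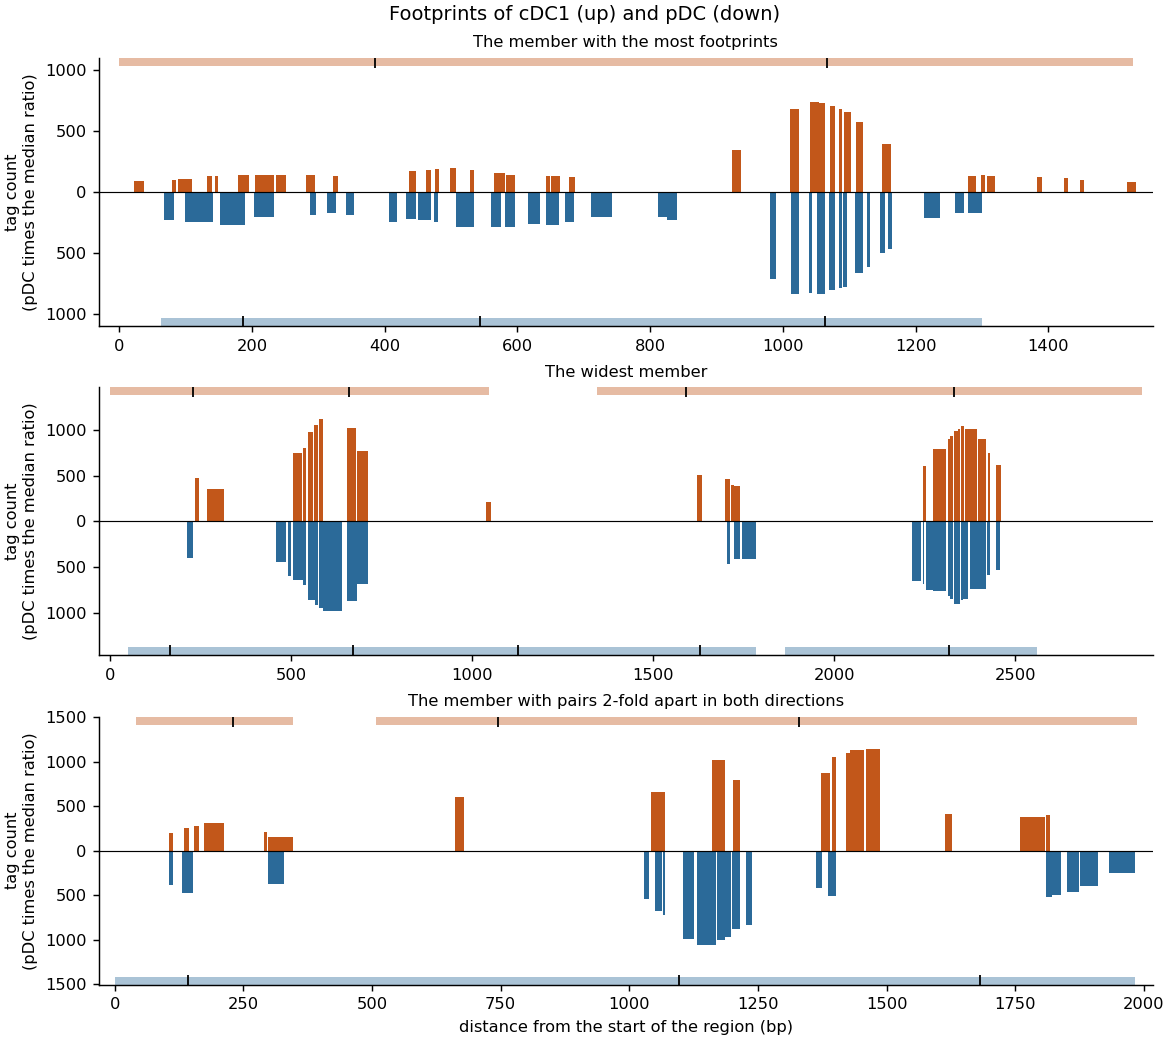
Footprints of 3 members along the distance from the region's start in bp (x axis), drawn up for cDC1 and down for pDC with the tag count as height (y axis, linear; pDC tags were multiplied by the median ratio 3.23). Pale bars are the intervals and black ticks the summits; the top map shows 36 and 34 footprints in 1 block, the middle one outer blocks with ratios of 1.13 and 1.16, and the lowest one pairs with ratios from 0.40 to 2.06.

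The limits of the rule cut through a continuum. The 3 members nearest inside the lower limit had scaled ratios of 0.8003 to 0.8014, and the 3 wide regions just outside it 0.7995 to 0.7997. At the upper limit the ratios were at least 1.2494 inside and 1.2501 to 1.2505 outside. The 3 members at 1000 bp had 67 to 630 tags in pDC, and the 3 regions of the band that were 1 bp narrower had 248 to 394.

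Members were found on all 19 autosomes. They made up from 8.12% (7.04 to 9.35%) of the shared regions on chromosome 6 to 12% (10.9 to 13.2%) on chromosome 11. Of the wide shared regions of a chromosome, 56.0% on chromosome 18 to 63.6% on chromosome 11 were members. The nearest other merged region lay a median of 4865 bp away, against 3005 bp for all shared regions and 4686 bp for wide ones. It was itself shared for 1601 members (40.1%), open in cDC1 only for 2022 (50.7%) and in pDC only for 366 (9.18%). The corresponding shares were 44.8%, 44.4% and 10.7% for all shared regions. For all wide shared regions they were 41.5%, 49.0% and 9.46%, close to those of the members.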

How the data were processed

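Omni-ATAC-seq of cDC1 and pDC was analysed, 2 samples of each, mapped to groups by the titles in the labels. By the study's methods and the submitters' processing notes, the authors used Trim Galore, Bowtie2 on mm9, SAMtools filters and MACS2, and called footprints with HINT-ATAC on merged replicates, and no versions are named. The deposited peak lists hold the fold enrichment, a ratio over background, and the −log10 q of each summit. The authors' value per footprint was taken for a tag count without scaling for library size. Its window was not stated.

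Summit lines of identical extent were collapsed into intervals, which were merged with bedtools 2.31.1 where they overlapped or adjoined. Other steps used Python 3.11.15, numpy 2.4.6, pandas 2.3.3, scipy 1.17.1 and matplotlib 3.10.9, and were tested on simulated data. Library totals are those the study lists for its libraries. Shares have 95% Wilson intervals, rates exact Poisson intervals and medians order-statistic intervals. Reads are PCR products without molecular identifiers and neighbouring footprints are not independent, which these intervals do not cover. With 1 merged library per cell type no test was possible.

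The band runs from 0.8 to 1.25. The members, the comparison groups and the rule for named regions were chosen with earlier results of these data known. Named were the 5 members with the most footprints, the 5 with the largest geometric mean of tag counts, the 5 widest and the 3 nearest to each limit, with ties broken by position; uneven members and the gap of 150 bp between blocks were chosen after values were seen. The positions are in mm9, and they go past the chromosome ends of GRCm38 on 8 of 21 chromosomes. Genes, transcription starts, sequences and motifs, which were planned, were therefore not analysed here, and the cell types were not checked against marker genes.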

Additional observations from a re-analysis of the deposited data

Results flagged for a closer look

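Chromosome X, which the rule leaves out, held the same kind of region. Of its 137 wide shared regions, 85 (62.0%, Wilson interval 53.7 to 69.7%) lay inside the band of scaled ratios, against 59.6% on the autosomes, and the median ratio of the 137 was 1.11, against 1.07 for wide autosomal regions. It was flagged as a signal in data outside the comparisons, and no control samples exist to set it against.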

How the results depend on the processing

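No paired analysis was possible because replicates were merged before deposit, which also kept each replicate from being left out in turn. The number of members stayed within 1.5 times 3989 under 7 of 10 alternatives, from 3632 with the mean in place of the largest tag count (3166 members kept) to 5169 with a band that reached 1.5-fold to either side. It was 329 after scaling by all reads (0 kept), 6212 at a width limit of 800 bp and 848 at 1500 bp.

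Footprints per kb went to 9.23 in cDC1 and 7.35 in pDC with the upper 50% of footprints by tag count, to 9.95 and 8.44 without those at the right end of an interval and to 9.51 and 8.03 at 1500 bp. The footprints found in both were 63.3% and 70.9% at an overlap of 1 bp, 41.9% and 43.9% at 90% and 58.5% and 70.2% among that upper 50%. The fold enrichment ratio was 1.31 as a mean over summits and 0.931 after division by its median over shared regions. The nearest pDC summit lay 21 bp from the strongest cDC1 summit. The strongest summit by fold enrichment gave 23 bp, and intervals with a −log10 q of at least 10 gave a span of 84.4%. With a gap between blocks of 100 or 200 bp, chosen after seeing the data, the next strongest block lay in the band in 54.7% and 48.6%. The alternatives on transcription starts and base composition were not run. Without the pairs that hold a largest footprint, likewise chosen after seeing the data, 84.7% of the pairs of members lay in the band.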
